A study of Mus musculus with 8 samples.

Results

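The genes of the autophagy machinery were described in pressure-loaded hearts of male C57Bl6N mice. Load was imposed by transverse aortic constriction (TAC), an operation that tightens the aortic arch so that the left ventricle works against raised pressure, and hearts were taken after 1 week. A list of 35 genes was taken by gene symbol from the array's platform annotation. Each gene was read from a probe set that carries 1 symbol, and from the probe set with the highest mean signal where there were several. This gave 34 of the 35 genes, out of 22180 genes on the array. The cargo receptor gene Optn had no such probe set and was not analysed here. All 34 passed the filter on dim probe sets, a mean log2 signal of at least 3.80, as did 15086 genes in all.

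The 8 arrays held 4 hearts labelled CITED4 knockout and 4 hearts labelled floxed control, in which the allele carries recombination sites. The CITED4 protein works as a co-regulator of transcription through CBP/p300. All hearts had undergone TAC, so the comparison was between genotypes under load. The sources used here give neither the Cre driver, nor whether controls carried Cre, nor the age of the mice, nor how animals, litters and array runs were assigned. An effect of Cre cannot be told apart from that of the deletion, and p-values cover the spread between these 8 samples, which may be technical in part.

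Autophagy encloses cytoplasm, organelles and protein aggregates in a double membrane, the autophagosome, and delivers them to the lysosome. A kinase complex around ULK1 starts the process and a lipid kinase complex around Beclin 1 marks the site. Transmembrane and lipid transfer proteins feed the membrane, and a pair of ubiquitin-like reactions couples small proteins of the Atg8 family (LC3 and GABARAP) to it. Receptors bind cargo on one side and Atg8 proteins on the other. In the heart the pathway is known for removing damaged mitochondria and aggregates, and both too little and too much of it have been tied to failure under pressure load. Lipidation, phosphorylation and flux are protein events that an mRNA array does not measure.

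The targeted gene, Cited4 (Entrez gene 56222), had log2 signals of 5.26, 5.15, 4.83 and 5.02 in knockout hearts, against 5.89, 5.76, 6.05 and 6.22 in control hearts. Every knockout value lay below every control value. The difference was -0.91 ± 0.12 (SE; 53.1% of the control signal), with an exact two-sided permutation p of 0.0286, the smallest that 4 against 4 arrays allow. In limma's test across all genes it had an adjusted p of 0.277.

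Array medians ran from 4.29 to 4.33 and correlations between arrays from 0.979 to 0.988. The arrays were of heart: 8 of 8 ventricular cardiomyocyte markers were measured, with a mean level of 11.25 to 11.57 in knockout and 11.52 to 11.62 in control hearts. Knockout replicates 1 and 4 stood apart in activated fibroblast markers, with scores of 1.14 and 0.97, against 0.11 and -0.35 in knockout replicates 2 and 3. Control replicate 1 had 0.36, above the other control hearts (-0.86 to -0.54) and above knockout replicates 2 and 3. It was kept where results are given without knockout replicates 1 and 4. A score is the mean log2 deviation of a list's genes from their means over the 8 arrays. Knockout replicate 2 stood apart in atrial markers, with a score of 2.06, where the other knockout hearts had -0.43 to -0.20 and the control hearts -0.49 to 0.13. The defining markers of neutrophils (4 of 5) and lymphocytes (3 of 5) were below the filter.

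No gene of the machinery passed the test. With limma and Benjamini-Hochberg adjustment over the 15086 genes, 0 of 34 had an adjusted p under 0.05 (smallest 0.421), and 0 genes did over the whole table (background 0%). At an unadjusted p under 0.05 there were 2 of the 34, against a background of 11.2% of all genes tested. The groups did not overlap in 2 of the 34, both lower in the knockout, against a background of 5.23% in either direction, 2.9% with the knockout lower and 2.33% with it higher. The share at an unadjusted p under 0.05 (5.88%) lay below that of all genes and the share without overlap in either direction (5.88%) near it; with the knockout lower it lay above the background, on 2 genes. Of the 34 differences, 23 were below 0 and 11 above, where 48.8% of all genes tested were below 0, and their median was -0.05, beside 0.0038 over all genes (log2).

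The differences were small. Their median absolute size was 0.07, beside 0.096 for all genes tested, and the largest was 0.26 (Atg10). A size of at least 0.25 was seen in 1 of 34 members and in 12.9% of all genes. The median SE was 0.087 for the members and 0.102 for all genes tested, and genes of like signal were not compared. The 95% intervals of 33 of the 34 lay inside -0.5 to 0.5 (82.3% of all genes). The remaining one, that of Atg14, ran from -0.56 to 0.06. Over all members the intervals spanned 67.6% to 132% of the control signal. The plot of differences by step shows this narrow band.

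**Figure D1:**
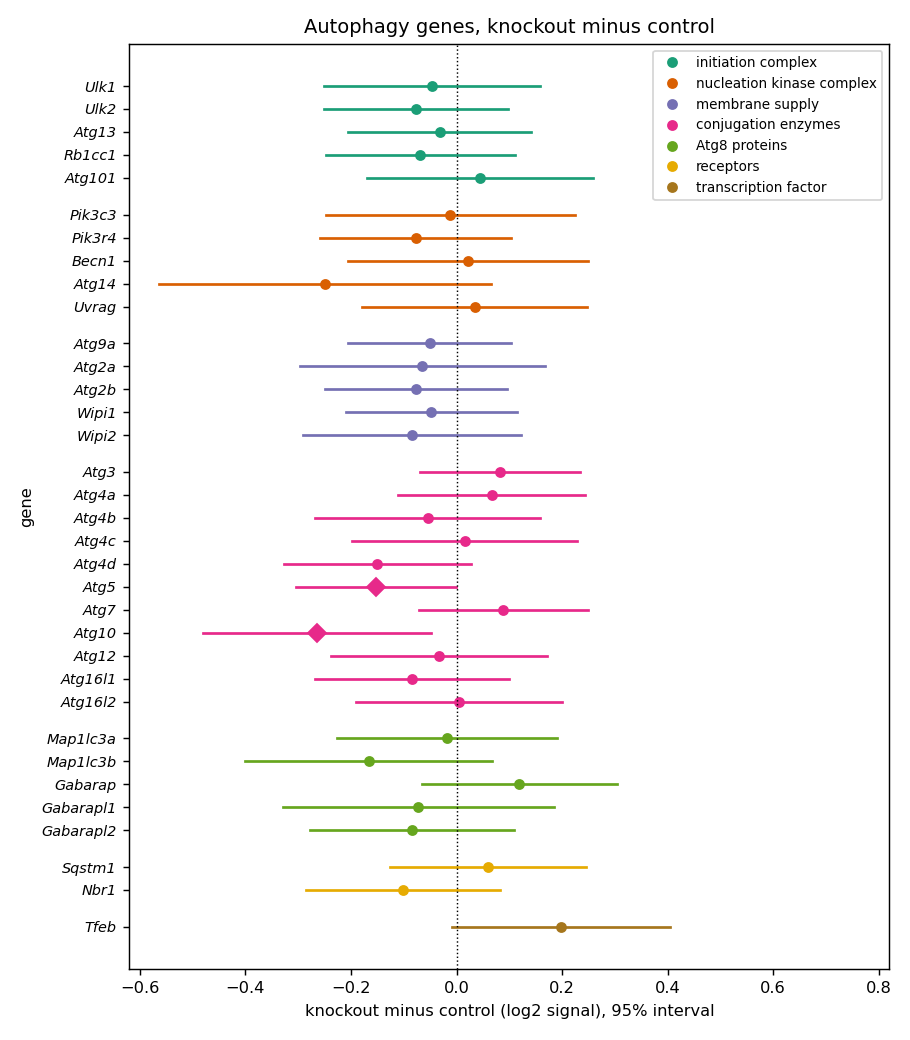
Knockout minus control difference in log2 signal (horizontal axis) for each of the 34 autophagy genes, in blocks by step, with limma's 95% interval. Diamonds mark Atg5 and Atg10, whose knockout and control values did not overlap; no gene passed the adjusted threshold of 0.05.

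**Figure D2:**
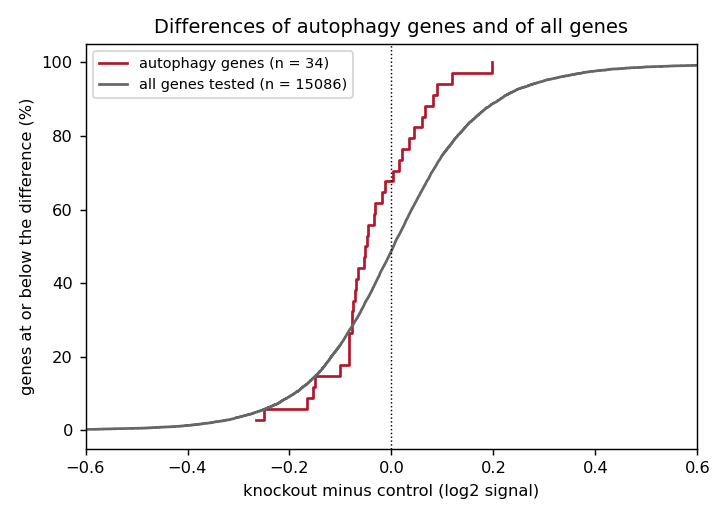
Cumulative share of genes (vertical axis, percent) at or below a given knockout minus control difference (log2, horizontal axis), for the 34 autophagy genes and for all 15086 genes tested. The autophagy line crosses 0 above the line of all genes, with 23 of 34 below 0. The axis stops at -0.6 and 0.6.

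RNA of heart tissue was measured, so fewer cells of a type and less RNA per cell cannot be told apart. Activated fibroblast markers were higher in the knockout for 8 of 8 genes, with a mean level of 8.64 to 10.12 in knockout and 8.13 to 9.35 in control hearts. Ventricular markers were lower for 7 of 8, with scores of -0.24 and -0.20 in knockout replicates 1 and 4. Knockout replicates 2 and 3 had scores of 0.08 and -0.0065, and control hearts 0.03 to 0.13. The mean level of the 34 autophagy genes ran from 7.22 to 7.34 in knockout and from 7.27 to 7.32 in control hearts. The part of cell makeup in these values was not tested.

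Among the 11 genes of the conjugation step were the members with the smallest p. Their products, enzymes and the proteins they join or bind, work in a pair of linked reactions. ATG7 activates both ATG12 and the Atg8 proteins. ATG10 passes ATG12 on to ATG5, and the ATG12-ATG5 conjugate binds ATG16L1. ATG3 passes the Atg8 proteins on to the membrane lipid, after ATG4 proteases have trimmed them. In this group 6 differences were below 0 and 5 above, with a median of -0.03, and 0 passed the test.

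Atg10 (Entrez gene 66795) had signals of 7.53, 7.90, 7.84 and 7.67 in knockout hearts, against 7.96, 7.91, 8.01 and 8.12 in control hearts. The knockout values lay below the control values, knockout replicate 2 by the smallest margin, and knockout replicates 1 and 4 were the lowest. The difference was -0.26 ± 0.10 (SE; 95% interval -0.48 to -0.05; 83.2% of control; limma adjusted p = 0.421). It was -0.13 without knockout replicates 1 and 4, which leaves 2 knockout arrays. These arrays had the highest fibroblast scores, whose part was not tested. As they also gave the lowest knockout values, leaving them out necessarily makes the difference smaller. The same holds for each gene below where these arrays were the extreme ones of the knockout in the direction of the difference.

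Atg5 (Entrez gene 11793), the partner that receives ATG12, had signals of 6.52, 6.57, 6.48 and 6.52 in knockout hearts, against 6.59, 6.68, 6.70 and 6.72 in control hearts. The groups did not overlap, and the knockout values lay close together. The difference was -0.15 ± 0.07 (SE; 89.9% of control; limma adjusted p = 0.444), and it was also -0.15 without knockout replicates 1 and 4. For both genes the exact two-sided permutation test gave p = 0.0286, which follows from groups that do not overlap.

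The rest of the ATG12 reaction differed less. Atg12 itself averaged 6.41 ± 0.11 in knockout and 6.45 ± 0.14 in control hearts (SD, n = 4 each). Atg16l1, the scaffold that places the conjugate on the membrane, averaged 6.90 ± 0.11 in knockout and 6.99 ± 0.09 in control hearts. Its relative Atg16l2 averaged 5.84 in both groups. Atg7, which feeds both reactions, was at 6.55, 6.40, 6.35 and 6.47 in knockout hearts, against 6.37, 6.31, 6.37 and 6.37 in control hearts. Its 3 highest values were all from knockout hearts, and the difference was 0.09 ± 0.07 (SE).

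On the Atg8 side, Atg3 was at 7.47, 7.47, 7.57 and 7.58 in knockout hearts, against 7.43, 7.44, 7.40 and 7.48 in control hearts. The values of knockout replicates 3 and 4 lay above all controls, and those of knockout replicates 1 and 2 within the control range. The difference was 0.08 ± 0.07 (SE). The 4 genes of the ATG4 proteases had no common direction. Atg4d averaged 6.75 ± 0.12 in knockout and 6.90 ± 0.05 in control hearts (SD), a difference of -0.15 ± 0.08 (SE; limma adjusted p = 0.497; exact permutation p = 0.0571). Atg4b differed by -0.05 ± 0.10, Atg4c by 0.02 ± 0.10 and Atg4a by 0.07 ± 0.08, less than their errors.

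**Figure D3:**
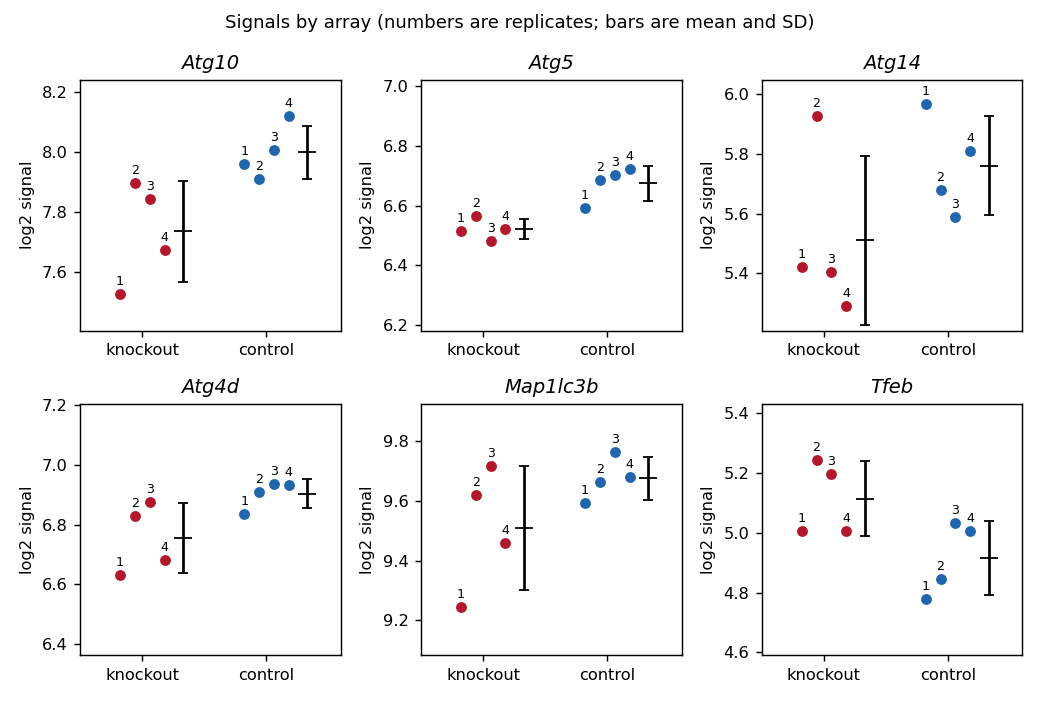
Log2 signal (vertical axis) of 6 autophagy genes in each array, knockout left and control right, with replicate numbers above the points and mean and SD beside them. Every panel spans the same number of log2 units. In Atg10 and Atg5 the knockout points lie below all control points; in the other panels the groups overlap.

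Promoters are shown for Atg5 and Atg10, the members whose groups did not overlap, and around the E-box of the other promoters that hold one. An E-box, CACGTG, is the core of the site bound by the transcription factor TFEB, a known activator of autophagy and lysosome genes. RefSeq promoter windows on GRCm38, 250 bases before to 50 after the start, matched 29 of the 35 genes (34 windows). CACGTG, which reads the same on both strands, was found in windows of 4 genes, Atg3, Atg5, Atg7 and Atg14, and in 7.15% of all 32851 windows. A match is a description of the letters and not a bound site.

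The windows lie at chr10:44268089-44268388 (plus strand) for Atg5 and chr13:91223938-91224237 (minus strand) for Atg10, written 5′ to 3′ along the gene with the E-box in capitals.
Atg5: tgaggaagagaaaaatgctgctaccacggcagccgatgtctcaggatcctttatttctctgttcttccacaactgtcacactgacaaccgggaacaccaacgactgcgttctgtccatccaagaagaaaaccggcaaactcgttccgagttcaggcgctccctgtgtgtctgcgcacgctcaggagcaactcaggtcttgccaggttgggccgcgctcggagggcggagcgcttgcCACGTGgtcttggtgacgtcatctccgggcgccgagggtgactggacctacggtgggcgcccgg
Atg10: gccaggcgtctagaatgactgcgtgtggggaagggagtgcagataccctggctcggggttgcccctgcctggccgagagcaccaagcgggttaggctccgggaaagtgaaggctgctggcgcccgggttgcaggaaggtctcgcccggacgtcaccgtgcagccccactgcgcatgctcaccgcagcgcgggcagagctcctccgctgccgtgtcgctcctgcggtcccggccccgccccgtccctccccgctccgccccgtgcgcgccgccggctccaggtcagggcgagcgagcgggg

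Stretches of 60 bases around the E-box lie at chr16:45158708-45158767 (plus) for Atg3, chr6:114670937-114670996 (plus) for Atg7 and chr14:47568403-47568462 (minus) for Atg14.
Atg3: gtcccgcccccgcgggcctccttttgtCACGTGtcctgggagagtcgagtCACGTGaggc
Atg7: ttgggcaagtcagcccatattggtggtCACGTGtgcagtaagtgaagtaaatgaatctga
Atg14: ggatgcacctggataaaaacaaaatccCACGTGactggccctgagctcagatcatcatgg

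The E-box of Atg5 began at position -14 from the RefSeq start, those of Atg7 and Atg14 at -132 and -1, and the first of 2 in Atg3 at -94. The 4 genes did not share a direction: Atg5 and Atg14 had differences of -0.15 and -0.25, and Atg3 and Atg7 of 0.08 and 0.09.

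Tfeb (Entrez gene 21425) had the highest difference of the 34. Its signals were 5.01, 5.24, 5.20 and 5.01 in knockout hearts, against 4.78, 4.85, 5.03 and 5.01 in control hearts. Knockout replicates 2 and 3 lay above all controls, and replicates 1 and 4 lay within the control range. The difference was 0.20 ± 0.09 (SE; 95% interval -0.01 to 0.40; limma adjusted p = 0.457; exact permutation p = 0.143), and it was 0.31 without knockout replicates 1 and 4.

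In the initiation complex, 4 of 5 differences were below 0, with a median of -0.05. Ulk2, one of the kinases that start autophagy, had the smallest p of the 5. It was at 8.09, 8.24, 8.11 and 8.08 in knockout hearts, against 8.35, 8.19, 8.14 and 8.15 in control hearts. Knockout replicates 1, 3 and 4 lay below all controls and replicate 2 within them; the difference was -0.08 ± 0.08 (SE; limma adjusted p = 0.725).

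The main kinase gene Ulk1 averaged 8.12 ± 0.16 in knockout and 8.17 ± 0.06 in control hearts (SD). The genes of its partners also differed by less than their standard errors. Atg13, the regulatory subunit, differed by -0.03 ± 0.08, Rb1cc1, which encodes the scaffold FIP200, by -0.07 ± 0.08, and Atg101, which stabilises ATG13, by 0.04 ± 0.10.

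In the nucleation complex, which makes phosphatidylinositol 3-phosphate, 3 of 5 differences were below 0 (median -0.01). Atg14 (Entrez gene 100504663), which brings the kinase to the site of autophagosome formation, had the widest spread of the 34 genes. It was at 5.42, 5.93, 5.41 and 5.29 in knockout hearts, against 5.97, 5.68, 5.59 and 5.81 in control hearts. Knockout replicates 1, 3 and 4 lay below all controls, and replicate 2, the array with high atrial markers, lay within the control range. The difference was -0.25 ± 0.14 (SE; limma adjusted p = 0.514; exact permutation p = 0.171). It was -0.39 without knockout replicate 2 and -0.10 without knockout replicates 1 and 4.

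The catalytic subunit gene Pik3c3 averaged 6.87 ± 0.16 in knockout and 6.88 ± 0.15 in control hearts. Becn1, which encodes the core subunit Beclin 1, averaged 7.10 ± 0.14 in knockout and 7.08 ± 0.15 in control hearts (SD). Uvrag, whose product replaces ATG14 in a complex of the endosomal route, differed by 0.03 ± 0.10 and Pik3r4, a regulatory subunit, by -0.08 ± 0.08 (SE).

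All 5 membrane supply genes had differences below 0, between -0.08 and -0.05. ATG9A is the transmembrane protein of the seed vesicles, ATG2A and ATG2B transfer lipids, and WIPI1 and WIPI2 bind phosphatidylinositol 3-phosphate. Atg2b was at 6.40, 6.57, 6.64 and 6.62 in knockout hearts, against 6.70, 6.63, 6.60 and 6.61 in control hearts. Knockout replicates 1 and 2 lay below all controls; the difference was -0.08 ± 0.08 (SE; limma adjusted p = 0.723). The other differences were -0.05 ± 0.07 for Atg9a, -0.07 ± 0.10 for Atg2a, -0.05 ± 0.07 for Wipi1 and -0.08 ± 0.09 for Wipi2, each with groups that overlapped.

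Of the 5 Atg8 genes, 4 had differences below 0 (median -0.07). Map1lc3b, which encodes the LC3B protein widely used as an autophagosome marker, was at 9.24, 9.62, 9.72 and 9.46 in knockout hearts, against 9.59, 9.66, 9.76 and 9.68 in control hearts. Knockout replicates 1 and 4 lay below all controls and replicates 2 and 3 within them. The difference was -0.17 ± 0.11 (SE; 95% interval -0.40 to 0.07; limma adjusted p = 0.553), and it was -0.0078 without knockout replicates 1 and 4.

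Map1lc3a, the gene of LC3A, was at 7.45, 7.62, 7.57 and 7.26 in knockout hearts, against 7.46, 7.39, 7.58 and 7.54 in control hearts, a difference of -0.02 ± 0.09. Gabarapl1 was at 8.16, 8.09, 7.82 and 7.81 in knockout hearts, against 8.29, 7.95, 7.99 and 7.93 in control hearts, a difference of -0.07 ± 0.12. Gabarapl2 was at 7.01, 7.09, 6.93 and 6.76 in knockout hearts, against 7.12, 6.96, 7.03 and 7.01 in control hearts, a difference of -0.08 ± 0.09. The groups overlapped in these 3 genes, and each difference was smaller than its standard error.

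Gabarap went the other way, at 11.27, 11.01, 11.00 and 11.13 in knockout hearts, against 11.04, 10.93, 10.92 and 11.03 in control hearts. Knockout replicates 1 and 4 lay above all controls; the difference was 0.12 ± 0.08 (SE; limma adjusted p = 0.594), and it was 0.02 without these arrays. A second probe set of Gabarap averaged 9.23 ± 0.15 in knockout and 8.95 ± 0.23 in control hearts (SD), a difference of 0.28 with the same sign (exact permutation p = 0.114). It was at 9.45, 9.19, 9.16 and 9.11 in knockout hearts, against 9.24, 8.72, 9.01 and 8.83 in control hearts. In both probe sets knockout replicates 2 and 3 lay above the control mean, though within the control range. In the second, knockout replicate 4 also lay within the control range, and only knockout replicate 1 lay above all controls. The second probe set was not refitted without knockout replicates 1 and 4. The signal of the first lies above that of 99% of genes, where RMA values can be compressed. Probe sequences were not analysed here, so signal shared between these related genes was not tested.

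Of the receptors, Nbr1 was at 8.19, 8.34, 8.25 and 8.17 in knockout hearts, against 8.29, 8.43, 8.44 and 8.20 in control hearts. NBR1 binds ubiquitinated cargo. Knockout replicates 1 and 4 lay below all controls; the difference was -0.10 ± 0.08 (SE; limma adjusted p = 0.645). Sqstm1, the gene of the receptor p62, averaged 9.49 ± 0.10 in knockout and 9.43 ± 0.10 in control hearts (SD), a difference of 0.06 ± 0.08 (SE; 95% interval -0.13 to 0.25).

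The median range of a member over the 8 arrays was 0.33, beside 0.46 for all genes tested. A range is never smaller than the difference between group means of the same arrays, so it was not compared with that difference. The smallest range among the 34 was 0.17 and the largest, that of Atg14, 0.68. The SD was larger among knockout than among control hearts in 26 of 34 members (61.3% of all genes tested), with median SDs of 0.12 in the knockout and 0.09 in the control. Atg101 was an exception, with an SD of 0.03 in the knockout and 0.19 in the control.

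Knockout replicate 4 gave the lowest of the 8 values in 12 of the 34 genes and knockout replicate 1 in 7. Knockout replicate 2 and control replicate 1 each gave the highest value in 8 genes, and control replicate 3 in 7. Such counts were not made over all genes tested, so whether they are particular to the autophagy genes is not known. The mean score of the 34 genes was -0.03, 0.06, -0.04 and -0.06 in knockout replicates 1 to 4, against 0.04, -0.01, 0.04 and 0.01 in the control replicates. Knockout replicate 2 had the highest score of the 8 arrays and the other knockout hearts the lowest. The conjugation score was -0.08 in knockout replicate 1, with the other arrays between -0.02 and 0.03. The map of deviations shows the same values gene by gene.

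**Figure D4:**
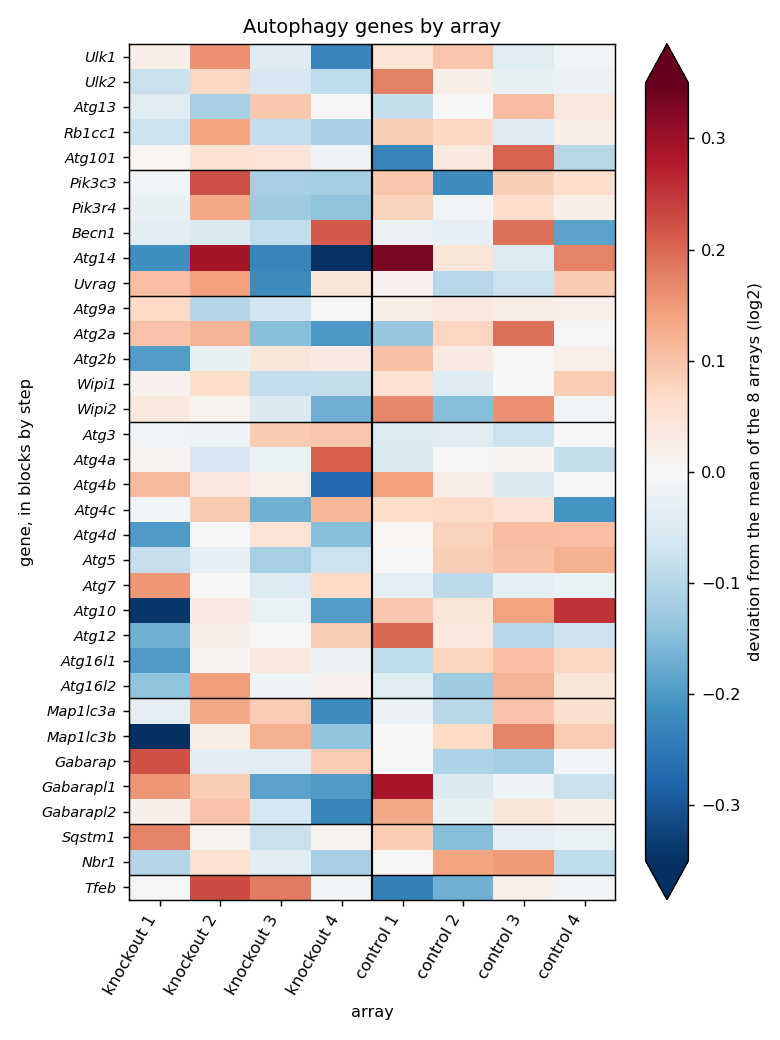
Deviation of each of the 34 autophagy genes (rows, in blocks by step) from its mean over the 8 arrays (log2, colour), with knockout arrays left of the black line and control arrays right of it. Knockout replicate 4 is lowest in 12 rows, while knockout replicate 2 is highest in 8. Such counts were not made over all genes tested.

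Genes of autophagy outside the 34 were described from 4 further lists, with 0 past the threshold in each. For 17 genes of fusion with the lysosome, 12 differences were above 0 and 5 below (median 0.04). Vamp8, a SNARE of the fusion step, was at 6.18, 6.34, 6.08 and 6.00 in knockout hearts, against 5.99, 5.74, 6.05 and 5.84 in control hearts. Each knockout value was above 3 of the controls or all of them; the difference was 0.25 ± 0.10 (SE; limma adjusted p = 0.428). Vps41, a tethering subunit gene, differed by 0.14 ± 0.09, Vps39, another, by -0.04 ± 0.08, and Fyco1, which links LC3-coated vesicles to kinesin, by -0.22 ± 0.11.

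Of 18 further genes of selective autophagy, receptors and related factors such as the kinase gene Pink1, 12 were below 0 (median -0.035). Pink1, the kinase gene that marks damaged mitochondria for removal, was at 7.64, 8.31, 8.09 and 7.75 in knockout hearts, against 8.28, 8.28, 8.42 and 8.46 in control hearts. Knockout replicates 1, 3 and 4 lay below all controls. The difference was -0.41 ± 0.14 (SE; limma adjusted p = 0.421), and it was -0.16 without knockout replicates 1 and 4. Bcl2l13, a mitochondrial receptor gene, differed by -0.24 ± 0.09. Among those above 0, the mitochondrial receptor genes Fkbp8 and Bnip3 differed by 0.26 ± 0.14 and 0.15 ± 0.09 (SE). Single arrays moved both: Fkbp8 differed by 0.10 without knockout replicate 1 and Bnip3 by 0.076 without control replicate 2.

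Upstream kinases and transcription factors, 22 genes, had 14 differences below 0 and a median of -0.07. At an unadjusted p under 0.05 there were 3 lower, against a background of 5.61%, and 1 higher, against 5.64%. Sesn1, the gene of a stress-induced inhibitor of mTORC1, was at 7.88, 8.45, 8.55 and 8.12 in knockout hearts, against 8.61, 8.76, 8.62 and 8.58 in control hearts. The groups did not overlap, and knockout replicates 1 and 4 were the lowest; the difference was -0.40 ± 0.14 (SE; limma adjusted p = 0.421) and -0.15 without these arrays.

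Rragd, the gene of a GTPase that brings mTORC1 to the lysosome, differed by -0.36 ± 0.12 (SE; limma adjusted p = 0.421). Ddit4, a stress-induced inhibitor of mTORC1 like Sesn1, differed by 0.53 ± 0.20 (SE), and Mcoln1, a lysosomal calcium channel gene, by 0.05 ± 0.07. The kinase gene Mtor and the AMPK subunit gene Prkaa2 had groups that overlapped: Mtor averaged 7.44 ± 0.13 in knockout and 7.52 ± 0.07 in control hearts, and Prkaa2 9.86 ± 0.06 in knockout and 9.95 ± 0.09 in control hearts (SD). These last 2 were named after their values were seen.

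Of 10 tested genes among further initiation and nucleation factors, 5 were above 0 and 5 below (median 0.00099). Bcl2, whose product binds Beclin 1, differed by 0.26 ± 0.16 and Ambra1, a Beclin 1 partner gene, by 0.11 ± 0.09 (SE). Bcl2 differed by 0.11 without knockout replicate 4 and by 0.40 without knockout replicate 2, and Ambra1 by 0.053 without knockout replicate 3. Wdr45, a relative of the WIPI genes, differed by -0.15 ± 0.09 and Tmem41b, a lipid scramblase gene, by -0.07 ± 0.09.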

How the data were processed

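Per the labels' protocols, heart RNA was biotin-labelled and hybridised to Affymetrix arrays. The deposited values are log2 signals, 1 per probe set (41345) and array (8), made with RMA and limma per the submitters' processing notes, which list no versions. The genome build, probe positions and array batches are unknown here. RMA equalises array distributions, so a shift of all genes would not be visible.

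Of the probe sets, 23521 carried 1 symbol, 1814 several and 16010 none. Entrez identifiers gave current symbols for 23328, and 193 kept the platform's. Genes with a mean signal at or above the 40th percentile over probe sets were tested, which left 15086. Knockout minus control was fitted with limma 3.58.1 (R 4.3.3; lmFit, eBayes, no trend) over all of them, and p-values were adjusted by Benjamini-Hochberg (threshold 0.05). The fit was tested on simulated data. Standard errors and 95% intervals are limma's, the intervals unadjusted. Single values also had an exact permutation test over 70 assignments. The number of arrays limits precision.

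Members and lists were chosen with earlier results of these data known. Named in full were Cited4, the member with the smallest p per step, members without overlap and the Atg8 genes, and up to 4 genes per further list, 2 in each direction. The values of Atg3 and Atg7 were given in full after they were seen. Other genes are said to be named later. Of the marker lists, those of resting fibroblasts (4 of 6 higher), macrophages (7 of 8), endothelium (1 of 6), smooth muscle (1 of 6), atrial myocytes (4 of 5), erythrocytes (1 of 1), neutrophils (1 of 1), adipocytes (2 of 2) and lymphocytes (2 of 2) were counted likewise. Alternatives were other filters, scalings, probe set summaries, variance models, weights, a block and left-out arrays.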

Additional observations from a re-analysis of the deposited data

Results flagged for a closer look

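In 102 groups of 4 arrays (34 autophagy genes, Cited4 and 16 further genes, by genotype), 8 held an array whose gap to its nearest neighbour was a larger share of the group's range than Dixon's 95% critical value, which chance exceeds in about 1 of 20 groups. Among members, the highest knockout value of Rb1cc1 was 8.39 (knockout replicate 2; the other knockout values were 8.14 to 8.17), and that of Becn1 was 7.30 (knockout replicate 4; the other values were 7.00 to 7.05). In control hearts the lowest value of Pik3c3 was 6.65 (control replicate 2; others 6.93 to 6.97). The lowest control value of Atg7, 6.31, was also from control replicate 2 (others 6.37). The lowest control values of Atg4c, 5.54 (control replicate 4; others 5.80 to 5.82), and of Atg16l1, 6.86 (control replicate 1; others 7.02 to 7.05), stood apart likewise. Among the further genes, knockout replicate 2 gave the lowest knockout values of Ddit4, 5.86 (others 6.32 to 6.40), and of Mcoln1, 7.58 (others 7.68 to 7.70). Of these arrays, knockout replicate 2 was the one with high atrial markers, whose part in its 3 values was not tested.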

How the results depend on the processing

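The count of members past the threshold was 0 in all 19 alternatives, as was the count over all genes. The counts at an unadjusted p under 0.05 over all genes were 987 (without knockout replicate 1) to 2390 (without knockout replicate 2) with 1 array left out, against 1697 with all; they were 1058, 1056 and 1109 without knockout replicate 4, control replicate 2 and control replicate 3, and 617 without knockout replicates 1 and 4. For the members this count, 2, was 1 with no filter, with quantile normalization again, with the replicate block and without knockout replicates 1 and 4, and 0 (without control replicate 4) to 3 (without knockout replicate 2) with 1 array left out. Members below 0 numbered 21 to 25 with 1 array left out, with medians from -0.08 (without knockout replicate 2) to -0.02 (without knockout replicate 4). The median of all genes was 0.0040 with quantile normalization again and -0.0021 with a common array median. Array distributions were already equalised by RMA, so these scalings could hardly move it. Whether replicate numbers pair the samples is not given. The correlations of same-numbered deviations were 0.36, 0.0087, 0.28 and -0.025 for replicates 1 to 4. Knockout replicates 1 and 3 correlated best with the control of their number, and replicates 2 and 4 with control replicates 4 and 1. With the replicate block the count at an unadjusted p under 0.05 over all genes was 2177, against 1697 without it. The block stands only for a shared number, and a shared run or order was not tested. The conjugation median was 0.0012 with array weights and -0.063 to 0.018 with 1 array left out. The initiation median ran from -0.11 to -0.037 and the median of the upstream kinases and transcription factors from -0.084 to -0.050 with 1 array left out. Cited4 ran from -0.99 to -0.83.

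Of 34 members 20 kept their direction in every alternative. Signs turned for Atg16l2 with a common array median (-0.0021) and for Atg12 with array weights (0.0012). Without knockout replicates 1 and 4 they turned for Ulk1 (0.034), Pik3c3 (0.049), Becn1 (-0.057), Uvrag (-0.022), Atg4a (-0.0083), Atg4c (-0.031), Map1lc3a (0.10) and Sqstm1 (-0.0033). With 1 array left out, ranges that crossed 0 were -0.11 to 0.023 for Ulk1, -0.069 to 0.0020 for Atg13, -0.025 to 0.12 for Atg101, -0.089 to 0.027 for Pik3c3, -0.047 to 0.089 for Becn1 and -0.0083 to 0.11 for Uvrag. They were -0.10 to 0.027 for Atg4b, -0.052 to 0.074 for Atg4c, -0.072 to 0.028 for Atg12, -0.045 to 0.051 for Atg16l2, -0.065 to 0.053 for Map1lc3a and -0.14 to 0.012 for Gabarapl1. Among the further genes, 1 array also moved Vps41 to 0.089 (without knockout replicate 1), Vps39 to -0.011 (without knockout replicate 3), Tmem41b to -0.0096 (without knockout replicate 2) and Ddit4 to 0.35 (without control replicate 2). The cause of these shifts was not tested.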

Other observations

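Vmp1, an early autophagosome gene whose product moves lipids between membrane leaflets, lay below the filter and was named after its values were seen. Its log2 signals were 4.31, 3.65, 3.84 and 4.54 in knockout hearts, against 3.97, 3.22, 3.22 and 3.33 in control hearts. Knockout replicates 1 and 4, which also had the highest fibroblast scores, lay above all controls. The difference was 0.65 ± 0.22 (SE), with a limma adjusted p of 0.529 when no filter was set and an exact permutation p of 0.0857. Flcn, the gene of folliculin, which controls the lysosomal retention of TFEB, was also named after its values were seen. It was at 6.49, 6.52, 6.42 and 6.38 in knockout hearts, against 6.50, 6.63, 6.97 and 6.93 in control hearts, a difference of -0.30 ± 0.11 (SE; limma adjusted p = 0.421). The values of knockout replicates 1, 3 and 4 lay below all controls, and that of replicate 2 above the lowest of them.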
